A study of Mus musculus with 12 samples.

Results

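Transcripts of 31 genes of folate, one-carbon and serine metabolism were followed in the mouse neural tube at 3 stages, GD8.5, GD9.0 and GD9.5, where GD stands for the day of gestation. The genes were taken from a list by function and each was read from its brightest probe set naming a single gene. Of the 31, 29 had such a probe set among the 18193 genes measured, and no value is given for Amt or Mat2a. The tissue was neural tube micro-dissected from embryos of outbred ICR (CD-1) mice, and the labels name no treatment or genetic change in any group. Pregnancies came from overnight matings, and the morning of the plug was counted as day 0. Each stage had 4 arrays labelled as biological replicates, and the labels do not say whether a replicate was a single embryo, a litter or a pool, so p-values measure the spread between these RNA samples.

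Folate coenzymes carry single carbon units, most of which enter the pool from serine. Mitochondrial enzymes turn serine and glycine into formate, and cytosolic enzymes spend that formate on purines, thymidylate and the methyl group of methionine. A pregnant female's folate supply and several of these genes, among them those of the glycine cleavage system, are known to affect closure of the neural tube, which takes place over the days sampled here.

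Values for GD8.5 replicates 1 and 2 were deposited on a linear scale and those of the other 10 arrays on a log2 scale, so results rest on the 10 arrays, of which GD8.5 had 2 and each later stage 4. Array medians lay between 1.75 and 1.81 log2 units, and the 95th percentile of 39 olfactory receptor genes, 1.425, served as background. Defining genes of neuroepithelium, such as Sox2 and Pax6, were above background at every stage (8 of 8 genes, mean level 5.94, 6.42 and 7.15). Genes of heart muscle and of endoderm and yolk sac were also present at GD8.5 (10 of 10 and 10 of 11 above background, mean levels 5.90 and 6.34). Their means were 3.18 and 3.41 at GD9.0 and 1.54 in both lists at GD9.5, where 6 of 10 and 7 of 11 were above background. The mean of 7 erythroid genes was 5.26, 6.51 and 7.21 at the 3 stages, and that of 7 genes of cell division was 8.37, 8.47 and 8.46. Control probes differed by stage too: 18S rRNA read 9.82, 8.81 and 10.3, the 3' minus 5' difference of actin 0.71, 0.563 and 0.932, and the bacterial poly-A controls 4.94, 4.95 and 5.18. Stage cannot be told apart from these measures, and in whole tissue fewer cells of a type and less RNA per cell cannot be told apart either.

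Between GD9.0 and GD9.5 transcripts of 7 cytosolic and mitochondrial folate enzymes fell together by 1.13- to 1.41-fold: Gart, Atic, Mthfd1, Shmt1, Mthfd2, Mthfd1l and Shmt2. Ggh, Folr1, Mthfd2l and Phgdh rose over the same interval by 1.25- to 1.62-fold. In this second interval 4 of the 29 measured members rose (14.1% of all genes did) and 12 fell (10.3% of all genes did). The first interval, GD8.5 to GD9.0, gave fewer calls: 5 members rose (6.78% of all genes) and 2 fell (6.74% of all genes). Over the whole course from GD8.5 to GD9.5, 5 members were higher (15.5% of all genes) and 12 lower (13.1% of all genes). A call is an adjusted p under 0.05 in a limma fit over all 18193 genes with Benjamini-Hochberg adjustment. Of these genes 13018 had a mean above background, while 26 of the 29 members were above it in at least 1 stage. The shares of all genes thus take in a larger part of genes at background than the members do. The median log2 change of the members was -0.0284 in the first interval and -0.112 in the second, beside -0.00191 and -0.00765 for all genes. The intervals share the GD9.0 arrays, so their values are given side by side.

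**Figure D1:**
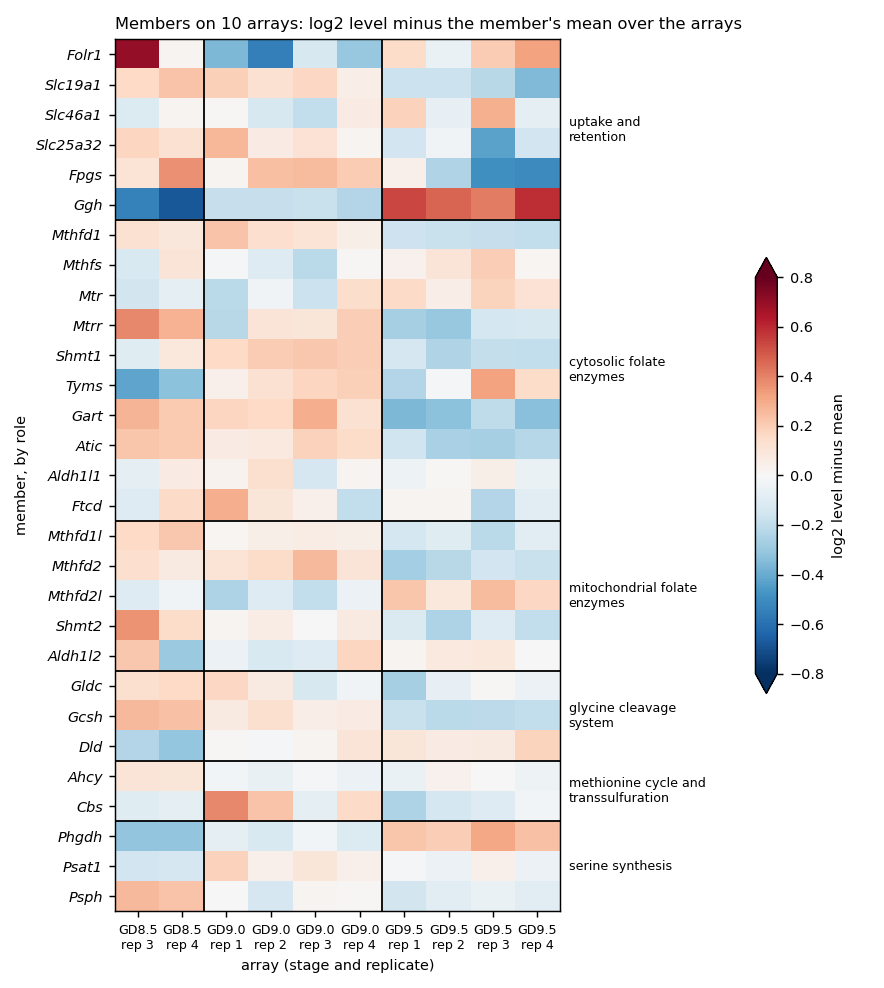
Log2 level of each of the 29 measured members (rows, grouped by role) on each of the 10 log2 arrays (columns), minus that member's mean over the arrays; red is above and blue below the mean. Most cytosolic and mitochondrial rows turn from red to blue between GD9.0 and GD9.5, while Ggh, Mthfd2l and Phgdh turn the other way.

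Calls of the first interval rest on 2 arrays at GD8.5. Without GD8.5 replicate 3, 2 members rose and none fell, and without replicate 4, 1 rose and 2 fell. None of the 7 first-interval calls held in every alternative tried, against 9 of the 16 second-interval calls, and no called member changed direction in any of them. Across the 2 intervals 20 members were called at least once, 3 in both (Folr1, Ggh and Phgdh) and 8 in none of the 3 stage comparisons. Those 8 were Slc46a1, Mthfs, Mtr, Aldh1l1, Aldh1l2, Ftcd, Gldc and Ahcy. Mthfs, Aldh1l1 and Ftcd lay at or under background at every stage, with means of 1.10 to 1.27, 1.12 to 1.15 and 1.21 to 1.34, and no fold is given for them.

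**Figure D2:**
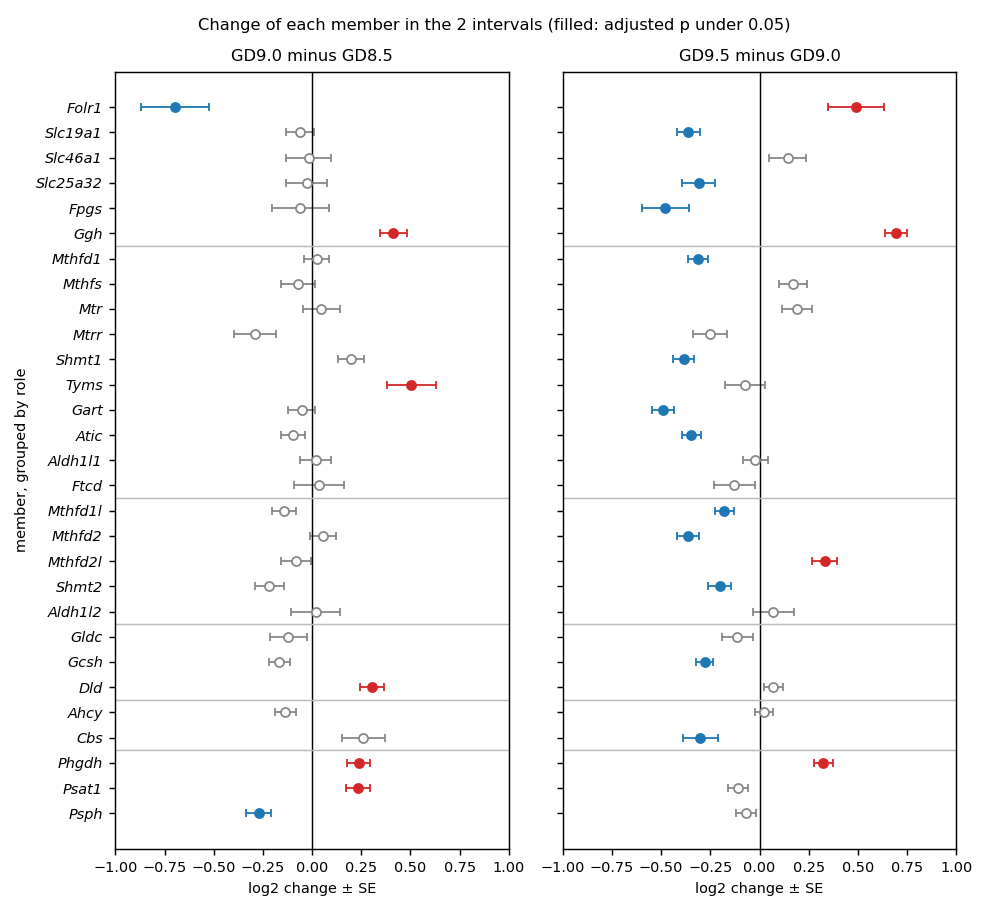
Log2 change with its standard error for each of the 29 members in GD9.0 minus GD8.5 (left) and GD9.5 minus GD9.0 (right). Filled points have an adjusted p under 0.05, red for higher and blue for lower: 5 red and 2 blue on the left, 4 red and 12 blue on the right.

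Among the 6 genes of folate uptake and retention, Ggh rose in both intervals, Slc19a1, Slc25a32 and Fpgs fell in the second, and Folr1 fell and then rose. Ggh encodes the hydrolase that trims the glutamate tail that holds folates inside the cell. It read 3.58 and 3.44 at GD8.5, then 3.94, 3.93, 3.94 and 3.88 at GD9.0, then 4.65, 4.58, 4.53 and 4.71 at GD9.5. The arrays of the 3 stages did not overlap. Ggh rose by 0.41 ± 0.07 (SE, as for every change below) in the first interval (1.33-fold, adjusted p = 0.00188) and by 0.69 ± 0.06 in the second (1.62-fold, adjusted p = 6.51e-06). From GD8.5 to GD9.5 the rise was 2.16-fold, and of the alternatives only the fit of all 12 arrays lost its first-interval call. The mean of the 7 erythroid genes also went up at each step, from 5.26 to 6.51 and 7.21, and its part in the rise of Ggh was not tested.

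Fpgs encodes the synthetase that adds those glutamates and keeps folates inside cell and mitochondrion. It read 4.05 and 4.31 at GD8.5, then 3.96, 4.18, 4.19 and 4.14 at GD9.0, then 3.98, 3.70, 3.45 and 3.43 at GD9.5. Replicate 1 of GD9.5 overlapped the GD9.0 arrays, and the other 3 lay below them. Fpgs fell by 0.48 ± 0.12 in the second interval (1.39-fold, adjusted p = 0.012), after a change of -0.06 ± 0.14 in the first.

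Slc19a1, the reduced folate carrier, read 5.77 and 5.83 at GD8.5, then 5.80, 5.73, 5.77 and 5.66 at GD9.0, then 5.43, 5.44, 5.38 and 5.26 at GD9.5. Every GD9.5 array lay below every earlier one. It fell by 0.36 ± 0.06 in the second interval (1.28-fold, adjusted p = 0.000878) and was at -0.06 ± 0.07 in the first. Slc25a32, the carrier that brings folate into mitochondria, read 3.55 and 3.50, then 3.64, 3.44, 3.49 and 3.40, then 3.22, 3.35, 2.95 and 3.22. Its GD9.5 arrays also lay below all others, with a fall of 0.31 ± 0.09 (1.24-fold, adjusted p = 0.0217). Only 1 of its 3 probe sets gave that call, and a dimmer set was called in the first interval instead (log2 change -0.54). Slc46a1, the proton-coupled folate transporter, had means of 2.03, 2.01 and 2.16 and passed no test.

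Folr1, the folate receptor that takes up folate by endocytosis, was the only member to change in both intervals in opposite directions. It read 3.84 and 3.16 at GD8.5, then 2.78, 2.59, 3.01 and 2.83, and 3.29, 3.09, 3.34 and 3.46 at GD9.5. The GD8.5 arrays were far apart (SD 0.48, against 0.17 at GD9.0 and 0.15 at GD9.5), and the GD9.0 arrays lay below those of both other stages. Folr1 fell by 0.70 ± 0.17 in the first interval (1.62-fold, adjusted p = 0.0212) and rose by 0.49 ± 0.14 in the second (1.40-fold, adjusted p = 0.0268). The difference of the intervals was 1.19 ± 0.27 (adjusted p = 0.0148), and GD9.5 against GD8.5 was -0.21 ± 0.17 (adjusted p = 0.445). Without GD8.5 replicate 3 the first-interval change was -0.35 and not called (adjusted p = 0.247), and the call was also lost with the replicate number as a block and with only the arrays of the 2 stages. The rise was lost in 7 of 20 alternatives, 6 of them leaving out a single GD9.0 or GD9.5 array.

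Folr1 is also made by visceral endoderm. The 11 endoderm and yolk sac genes averaged 6.33 to 6.35 on the GD8.5 arrays, 3.37 to 3.48 at GD9.0 and 1.50 to 1.57 at GD9.5. At GD9.5 Apob, Amn, Cubn and Alb lay under background, as Alb did at every stage. The list mean was lower at each step, and Folr1 fell and then rose. The part of this tissue in either change of Folr1 was not tested.

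**Figure D3:**
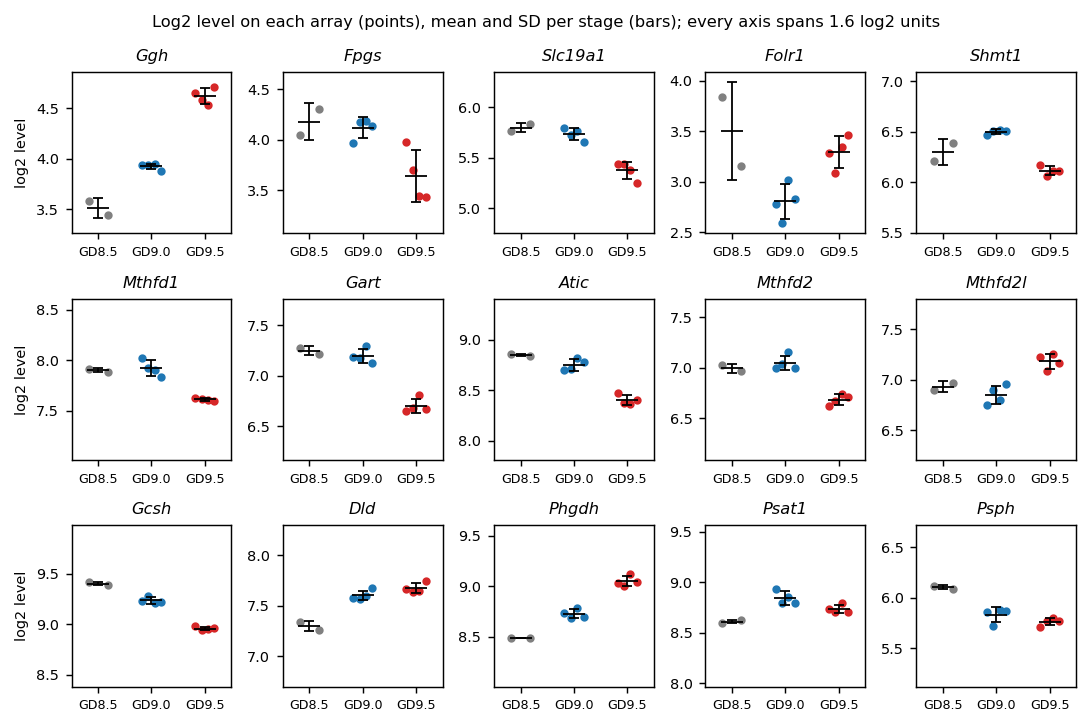
Log2 level on each array (points) with the mean and SD per stage (bars) for 15 of the 20 members called in an interval (2, 4 and 4 arrays). Axes differ in position but all span 1.6 log2 units: Ggh climbs at both steps, Shmt1, Gart, Atic and Mthfd2 drop at the second, and Folr1 dips at GD9.0.

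Of the 10 cytosolic folate enzymes 4 fell in the second interval (10.3% of all genes did). The other 6, among them Mthfs, Aldh1l1 and Ftcd at or under background, passed no test there. The median log2 change of the 10 was -0.19, beside -0.00765 for all genes. The 4 that fell were not called in the first interval. Gart and Atic catalyse the folate-dependent steps of purine synthesis, Mthfd1 supplies them with formyl-folate, and Shmt1 exchanges serine for glycine while loading folate. Over the same interval the cell division genes stood at 8.47 and 8.46, and the neuroepithelial genes at 6.42 and 7.15. The mean of 8 neuron genes was 3.592 at GD9.0 and 5.599 at GD9.5, and all 8 were called higher. That of 8 surface ectoderm genes was 4.954 and 4.22, and all 8 were called lower. Heart and endoderm genes stood at the levels given above. The part of these tissue changes in the falls of the folate enzymes was not tested.

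Gart read 7.28 and 7.22 at GD8.5, then 7.18, 7.17, 7.30 and 7.13 at GD9.0, then 6.65, 6.68, 6.81 and 6.67 at GD9.5. It fell by 0.49 ± 0.06 in the second interval (1.41-fold, adjusted p = 9.15e-05) with no overlap between the stages, and 3 of its 4 probe sets were called. Its first-interval change was -0.05 ± 0.07, and the difference of the intervals was -0.44 ± 0.11 (adjusted p = 0.0226). Atic, which completes the purine ring, read 8.86 and 8.85, then 8.70, 8.71, 8.82 and 8.78, then 8.48, 8.38, 8.37 and 8.41. Its GD9.5 arrays lay below all others, a fall of 0.35 ± 0.05 (1.27-fold, adjusted p = 0.000473) that both probe sets gave and that only the fit of all 12 arrays lost.

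Shmt1 read 6.21 and 6.39 at GD8.5, then 6.47, 6.51, 6.52 and 6.50 at GD9.0, then 6.17, 6.06, 6.11 and 6.11 at GD9.5. GD9.0 was thus the highest stage (SD 0.023, n = 4) and GD9.5 the lowest. The fall of 0.39 ± 0.05 in the second interval (1.31-fold, adjusted p = 0.000341) was called in all 4 of its probe sets. The preceding change of 0.20 ± 0.07 was not called (adjusted p = 0.0751), while the difference of the intervals was, at -0.58 ± 0.10 (adjusted p = 0.00371). That difference was called in every alternative.

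Mthfd1 read 7.91 and 7.88 at GD8.5, then 8.02, 7.93, 7.90 and 7.84 at GD9.0, then 7.63, 7.61, 7.61 and 7.60 at GD9.5. The 4 GD9.5 arrays were nearly equal (SD 0.013) and below all others, a fall of 0.31 ± 0.05 (1.24-fold, adjusted p = 0.001). Of its 3 probe sets 2 gave this call, and the dimmest was at -0.02 and not called. Mthfd1 was at 0.02 ± 0.06 in the first interval.

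Tyms, which makes thymidylate, was called in the first interval. It read 2.05 and 2.14 at GD8.5, then 2.51, 2.59, 2.64 and 2.66 at GD9.0, then 2.24, 2.45, 2.79 and 2.62 at GD9.5. The GD8.5 arrays lay below all others, a rise of 0.50 ± 0.12 (1.42-fold, adjusted p = 0.0206), and GD9.5 overlapped GD9.0. This value comes from a dim probe set, the only one of 4 to be called, and a further probe set shared with a Tyms pseudogene was not used. The call was lost without either GD8.5 array, with the mean of all probe sets and in the fit of all 12 arrays. Mtrr, which reactivates methionine synthase, read 5.07 and 4.97, then 4.47, 4.79, 4.78 and 4.88, then 4.42, 4.39, 4.55 and 4.56. Its GD8.5 arrays lay above all others, and those of the later stages overlapped. Mtrr passed in neither interval alone (-0.29 ± 0.11 and -0.25 ± 0.09) but was 1.45-fold lower at GD9.5 than at GD8.5 (-0.54 ± 0.11, adjusted p = 0.00274). Mtr, methionine synthase itself, had means of 4.15, 4.20 and 4.39 and passed no test (adjusted p = 0.0975 in the second interval).

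In the mitochondrial arm Mthfd2l took the opposite direction to Mthfd2, Mthfd1l and Shmt2. In the second interval 3 of its 5 genes fell (10.3% of all genes did) and 1 rose (14.1% of all genes did). The median log2 change of the 5 was -0.18, beside -0.00765 for all genes. In the first interval the lowest adjusted p among the 5 was 0.0778. Mthfd2 and Mthfd2l encode mitochondrial enzymes for the same oxidation of methylene-folate, Mthfd1l releases formate, Shmt2 is the mitochondrial counterpart of Shmt1, and Aldh1l2 oxidises formyl-folate to carbon dioxide.

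Mthfd2 read 7.02 and 6.96 at GD8.5, then 7.00, 7.04, 7.15 and 7.00 at GD9.0, then 6.62, 6.67, 6.74 and 6.71 at GD9.5. It fell by 0.36 ± 0.05 in the second interval (1.29-fold, adjusted p = 0.000562), its GD9.5 arrays all below the others, in 1 of 2 probe sets. Mthfd2l read 6.90 and 6.97, then 6.75, 6.89, 6.80 and 6.95, then 7.22, 7.08, 7.25 and 7.16. Here the GD9.5 arrays lay above all others, a rise of 0.33 ± 0.06 (1.26-fold, adjusted p = 0.00225) given by 2 of 4 probe sets. In the first interval the pair stood at 0.05 ± 0.07 and -0.08 ± 0.08. The second interval differed from the first for both, by -0.42 ± 0.10 for Mthfd2 (adjusted p = 0.023) and 0.41 ± 0.12 for Mthfd2l (adjusted p = 0.0407). The Mthfd2l difference was lost in 11 of 19 alternatives, 8 of them leaving out a single array, and was at its lowest, 0.22, with the mean of all probe sets. That of Mthfd2 was lost in 4, without either GD8.5 array or GD9.0 replicate 2 or 3.

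Mthfd1l read 7.19 and 7.25 at GD8.5, then 7.04, 7.08, 7.09 and 7.08 at GD9.0, then 6.89, 6.93, 6.81 and 6.94 at GD9.5, lower at each stage with no overlap. Only its second step was called, at -0.18 ± 0.05 (1.13-fold, adjusted p = 0.0186), and it was lost without GD9.5 replicate 3, with median centring and with all 12 arrays. From GD8.5 to GD9.5 Mthfd1l fell by 0.32 ± 0.06 (1.25-fold, adjusted p = 0.0016). Shmt2 read 5.66 and 5.45, then 5.33, 5.36, 5.30 and 5.37, then 5.19, 5.06, 5.20 and 5.11, also without overlap between stages. Its second step of -0.20 ± 0.06 (1.15-fold, adjusted p = 0.0297) was called in 1 of 4 probe sets and lost in 9 of 20 alternatives. Over the whole course Shmt2 fell by 0.42 ± 0.07 (1.34-fold, adjusted p = 0.00115), again in 1 of 4 probe sets, whose name marks shared probes. The brightest set without shared probes was at -0.26 and was not called (adjusted p = 0.164). Aldh1l2 lay close to background, with means of 1.57, 1.59 and 1.66, and was not called. Its cytosolic relative Aldh1l1 was under background, so no comparison of that pair was possible.

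Differences between paired genes were also taken on each array, which removes what shifts a whole array. The Mthfd2l minus Mthfd2 difference averaged -0.196 ± 0.13 (SD, n = 4) at GD9.0 and 0.497 ± 0.084 (SD, n = 4) at GD9.5, a change of 0.694. A 2-sided exact permutation test gave p = 0.0286, the smallest that 4 arrays against 4 allow, and 0.0429 after adjustment over 3 pairs. For Mthfd2l and Mthfd2 the stages already lay apart in opposite directions, so this p was fixed beforehand. It adds nothing to the calls of these genes. Shmt1 minus Shmt2 went from 1.16 ± 0.043 to 0.978 ± 0.041 (SD, n = 4 each), a change of -0.183 with the same exact p and adjusted p. For Mthfd1 minus Mthfd1l the change was -0.132 (exact p = 0.0571). In the first interval 4 arrays against 2 cannot give a p under 0.133, and no pair differed by this test. Such a difference compares changes, since the signal of a probe set does not give one gene's level against another's.

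The glycine cleavage system, which releases a folate-bound carbon from glycine in mitochondria, gave a different call for each of its 3 measured members. Gcsh, the lipoate-carrying protein, read 9.42 and 9.39 at GD8.5, then 9.23, 9.28, 9.21 and 9.22 at GD9.0, then 8.98, 8.94, 8.95 and 8.96 at GD9.5. Stages did not overlap at either step, and the second was called (-0.28 ± 0.04, 1.21-fold, adjusted p = 0.000788) while the first was not (-0.17 ± 0.05, adjusted p = 0.0678). Dld, the dehydrogenase that the system shares with pyruvate and oxoglutarate dehydrogenase, read 7.33 and 7.26, then 7.58, 7.56, 7.59 and 7.67, then 7.67, 7.63, 7.64 and 7.75. Its GD8.5 arrays lay below all others, and it rose by 0.30 ± 0.06 in the first interval (1.23-fold, adjusted p = 0.00677), a call lost without GD8.5 replicate 4. Its second-interval change was 0.07 ± 0.05. Gldc, the glycine decarboxylase, read 6.04 and 6.07, then 6.08, 5.98, 5.79 and 5.88, then 5.65, 5.85, 5.92 and 5.87. Neighbouring stages overlapped, and Gldc passed no test (-0.23 ± 0.09 over the whole course, adjusted p = 0.0933).

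In the methionine cycle Ahcy, which clears S-adenosylhomocysteine, had means of 9.78, 9.64 and 9.67 and passed no test. Cbs, which directs homocysteine into cysteine, was dim: it read 1.67 and 1.68 at GD8.5, then 2.14, 1.98, 1.68 and 1.92 at GD9.0, then 1.51, 1.62, 1.65 and 1.74 at GD9.5. GD9.0 and GD9.5 overlapped, and the fall of 0.30 ± 0.09 (1.23-fold, adjusted p = 0.0306) was lost in 9 of 20 alternatives.

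The 3 enzymes that build serine from a glycolytic intermediate each followed a course of their own. Phgdh, the first enzyme, read 8.49 and 8.49 at GD8.5, then 8.74, 8.68, 8.79 and 8.70 at GD9.0, then 9.03, 9.01, 9.12 and 9.04 at GD9.5. It was higher at each stage with no overlap, by 0.24 ± 0.06 in the first interval (1.18-fold, adjusted p = 0.0224) and 0.32 ± 0.05 in the second (1.25-fold, adjusted p = 0.000562). All 4 Phgdh probe sets gave the second rise, while in the first interval their adjusted p was 0.052 to 0.296 when adjusted over all probe sets in place of genes. The first-interval call was lost without either GD8.5 array. The names of all 4 mark probes shared with other transcripts, so no value without shared probes could be given.

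Psat1, the aminotransferase that follows, read 8.60 and 8.62 at GD8.5, then 8.94, 8.80, 8.85 and 8.79 at GD9.0, then 8.74, 8.71, 8.79 and 8.71 at GD9.5. GD8.5 lay below the rest, and a rise of 0.23 ± 0.06 (1.18-fold, adjusted p = 0.0293) was called and lost in 8 of 20 alternatives. When adjusted over all probe sets in place of genes, the adjusted p of this rise was 0.0633. The next step was -0.11 ± 0.05 (adjusted p = 0.165), and the other Psat1 probe set was not called in either interval. Psph, the phosphatase that completes serine, read 6.12 and 6.09, then 5.86, 5.72, 5.88 and 5.87, then 5.71, 5.77, 5.80 and 5.77. GD8.5 lay above the rest, and Psph fell by 0.27 ± 0.06 in the first interval (1.21-fold, adjusted p = 0.0155), a call lost without either GD8.5 array. At GD9.5 Psph was 1.27-fold below GD8.5 (adjusted p = 0.00183) and Phgdh 1.47-fold above (adjusted p = 2.88e-05).

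Between the intervals themselves 2 members differed upward (6.97% of all genes) and 5 downward (4.67% of all genes). Folr1 and Mthfd2l were the upward ones. Shmt1, Gart, Mthfd2, Psat1 and Mthfd1 were the downward ones, with -0.34 ± 0.10 for Psat1 (adjusted p = 0.0412) and -0.33 ± 0.10 for Mthfd1 (adjusted p = 0.045). Folr1 and Shmt1 kept this call in every alternative. Of 19 alternatives, Psat1 and Mthfd1 each lost it in 14, Mthfd2l in 11, Mthfd2 in 4 and Gart in 3. For all 5 these included the fits without GD8.5 replicate 3 and without replicate 4.

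Promoter sequence is shown for 6 members. Gart, Atic and Shmt1 fell together in the second interval, and Shmt2 is the counterpart of Shmt1. The serine enzymes Phgdh and Psat1 were both called higher in the first interval, and in the second only Phgdh was. The 250 bases before the annotated start were taken from RefSeq (GRCm38.p6), which gave 31 windows for 27 of the 31 genes. Folr1, Slc25a32, Ggh and Aldh1l2 were not among them. Windows lie outside the named gene: Gart at chr16:91646973-91647222 on the minus strand, Atic at chr1:71556906-71557155 on the plus strand, Shmt1 at chr11:60811266-60811515 on the minus strand, Shmt2 at chr10:127522445-127522694 on the minus strand, Phgdh at chr3:98339970-98340219 on the minus strand and Psat1 at chr19:15925060-15925309 on the minus strand. Each is written 5′ to 3′ on the gene's strand and ends at the base before the start. Capitals mark the CCAAT box on either strand, the E-box, and the binding motif of NRF1.
Gart: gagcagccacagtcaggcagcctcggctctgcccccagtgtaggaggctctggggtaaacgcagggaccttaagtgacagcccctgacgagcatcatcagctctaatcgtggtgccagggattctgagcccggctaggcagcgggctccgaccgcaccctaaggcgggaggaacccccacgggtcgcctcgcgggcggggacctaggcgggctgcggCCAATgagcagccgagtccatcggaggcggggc
Atic: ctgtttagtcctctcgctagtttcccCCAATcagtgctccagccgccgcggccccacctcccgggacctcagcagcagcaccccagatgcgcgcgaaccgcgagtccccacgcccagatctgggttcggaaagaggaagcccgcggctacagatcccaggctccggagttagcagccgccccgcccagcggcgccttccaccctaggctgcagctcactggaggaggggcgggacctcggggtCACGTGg
Shmt1: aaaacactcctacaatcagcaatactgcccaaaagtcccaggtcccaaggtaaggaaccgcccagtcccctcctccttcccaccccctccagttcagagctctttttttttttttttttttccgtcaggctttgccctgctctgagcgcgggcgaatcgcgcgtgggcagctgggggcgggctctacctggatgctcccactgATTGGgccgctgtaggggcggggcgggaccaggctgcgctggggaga
Shmt2: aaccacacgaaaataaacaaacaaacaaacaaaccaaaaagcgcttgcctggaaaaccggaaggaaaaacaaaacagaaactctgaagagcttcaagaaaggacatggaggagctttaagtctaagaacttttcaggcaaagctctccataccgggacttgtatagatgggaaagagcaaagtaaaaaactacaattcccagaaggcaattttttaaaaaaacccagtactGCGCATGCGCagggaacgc
Phgdh: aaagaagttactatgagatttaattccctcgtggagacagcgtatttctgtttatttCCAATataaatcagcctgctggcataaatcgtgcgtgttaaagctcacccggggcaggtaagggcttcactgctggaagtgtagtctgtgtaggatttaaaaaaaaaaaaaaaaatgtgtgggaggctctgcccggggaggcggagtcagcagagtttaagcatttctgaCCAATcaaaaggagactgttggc
Psat1: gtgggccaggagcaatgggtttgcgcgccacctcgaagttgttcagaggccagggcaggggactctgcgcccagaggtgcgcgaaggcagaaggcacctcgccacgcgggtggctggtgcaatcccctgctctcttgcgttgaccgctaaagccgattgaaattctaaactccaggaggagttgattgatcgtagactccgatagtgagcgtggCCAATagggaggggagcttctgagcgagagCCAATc

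The windows shown for Phgdh and Psat1 hold 2 CCAAT boxes each, at 193 and 23 bases before the start for Phgdh and at 36 and 6 for Psat1. The window of Psph, which fell, holds 2 as well (78 and 48), and a second annotated start of Psat1 has none. Gart has CCAAT at 33 bases before the start, Shmt1 at 47 on the opposite strand and Atic at 224, with the E-box, CACGTG, of Atic at 7. Shmt2 alone of the 6 has the NRF1 motif, at 19 bases, and no CCAAT. On either strand CCAAT was found in 20 of the 31 windows. It was in 33.8% of 32851 windows of the same length (34.7% over the genes tested here). The GC box GGGCGG, left in lower case, was in 23 of 31 and 32.7% (48.3% over the genes tested here). Overlapping windows of Mtrr share a CCAAT site and a GC box, and those of Mthfs share GC boxes. The E-box was in 3 of 31 and 6.02% (7.38% over the genes tested here). The NRF1 motif was in 4 of 31 and 3.74% (6.02% over the genes tested here), and the windows holding it include overlapping windows of Mtrr that share a site. TGATGNAA, the core of the element bound by Atf4 with C/EBP factors, was in 0 of 31 and 3.45% (2.39% over the genes tested here). The E2F motif, searched as TTTCCCGC or else as TTTGGCGC, was in 0 of 31 and 1.30% (1.93% over the genes tested here). These are matches of letters in 1 window per start.

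Beyond the members, 103 genes in 9 lists cover pathways that feed on or feed the one-carbon pool, and 97 of them were measured. In the first interval 4 rose and 9 fell (median log2 change -0.0337), and in the second 11 rose and 21 fell (-0.0445), to be read against the shares of all genes given above. The 9 falls became 4 without either GD8.5 replicate 3 or replicate 4, and the 4 rises 2 without replicate 4. Purine synthesis genes fell beside Gart and Atic: of 12 further genes 5 did so in the second interval (median -0.159). Adsl, which acts on either side of the Atic step, fell by 0.50 ± 0.05 (from 6.67 to 6.17, adjusted p = 2.43e-05). Prpsap1, a regulator of the synthetase that starts the route, rose by 0.49 ± 0.07 and then fell by 0.77 ± 0.05 (7.40, 7.89 and 7.12, adjusted p = 0.000535 and 2.6e-06).

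Deoxynucleotide supply was mixed. Of 10 genes 2 rose in the first interval (6.78% of all genes did), Tk1 by 0.42 ± 0.07 and Rrm1 by 0.21 ± 0.06. In the second 4 rose (14.1% of all genes did) and 3 fell (10.3% of all genes did). Rrm1, the large subunit of ribonucleotide reductase, rose again by 0.30 ± 0.05, as did Rrm2b by 0.49 ± 0.14, while Dctd, which supplies the substrate of Tyms, fell by 0.54 ± 0.06 (adjusted p = 7.19e-05) and Samhd1 by 0.39 ± 0.06. Of 8 pyrimidine genes Cad fell in the first interval by 0.30 ± 0.07 (6.74% of all genes fell). In the second, 2 rose and 3 fell, beside the same shares of all genes as above. Ctps2 was at 0.32 ± 0.09, Cmpk1 at 0.22 ± 0.05, and Umps and Dhodh both at -0.23.

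Around methionine, 1 of 15 genes fell in the first interval (6.74% of all genes did). In the second 1 rose (14.1% of all genes did) and 2 fell (10.3% of all genes did). Srm, which makes spermidine, fell in both intervals, by 0.27 ± 0.07 and 0.39 ± 0.05. Cth, which follows Cbs, fell by 0.33 ± 0.05 in the second, and Ahcyl1, a relative of Ahcy, rose by 0.30 ± 0.05. Of 9 cobalamin genes Abcd4 fell by 0.52 ± 0.14 in the first interval, and Cd320, the receptor that takes up the vitamin needed by Mtr, by 0.40 ± 0.06 in the second. In the second interval Aldh7a1, 1 of 7 genes of choline, betaine and glycine breakdown, fell by 0.59 ± 0.06. Slc25a38, the mitochondrial glycine carrier and 1 of 11 serine and glycine transport genes, then fell by 0.41 ± 0.06. The counts of these lists stand beside the same shares of all genes, and no list was tested as a set.

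Phgdh, Psat1, Psph, Shmt2 and Mthfd2 are known targets of Atf4, the transcription factor of the amino acid response. Atf4 itself had means of 8.36, 8.38 and 8.38. Of 18 genes in its list 1 rose (6.78% of all genes did) and 4 fell (6.74% of all genes did) in the first interval (median -0.159). The falls were led by Vldlr at -1.10 ± 0.16 and Ddit4 at -0.86 ± 0.09, and Asns was at 0.31 ± 0.06. In the second interval 4 rose (14.1% of all genes did), with Gpt2 at 0.69 ± 0.08 and Slc7a5 at 0.59 ± 0.07. Of the members named as its targets, Phgdh and Psat1 were called higher and Psph lower in the first interval. In the second Phgdh rose, Mthfd2 and Shmt2 fell, and Psat1 and Psph were not called. The part of Atf4 in these changes was not tested.

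The 7 genes listed as other folate-binding were Folr2, Mthfsd, Mtfmt, Abcc1, Abcg2, Lrp2 and Cubn, not all of which take up folate. Their median log2 change in the second interval was -0.407 (-0.00765 for all genes), and 5 fell (10.3% of all genes did). Cubn, an endocytic receptor of visceral endoderm and kidney, fell 12.2-fold in the first interval (from 6.22 to 2.61, adjusted p = 4.41e-09) and at least 2.28-fold in the second, reaching 1.27, under background. Cubn is also 1 of the 11 endoderm and yolk sac genes given with Folr1. Lrp2, a partner of Cubn that neuroepithelium also makes, fell by 0.76 ± 0.09 in the second interval (5.07 to 4.30, adjusted p = 8.02e-05).

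**Figure D4:**
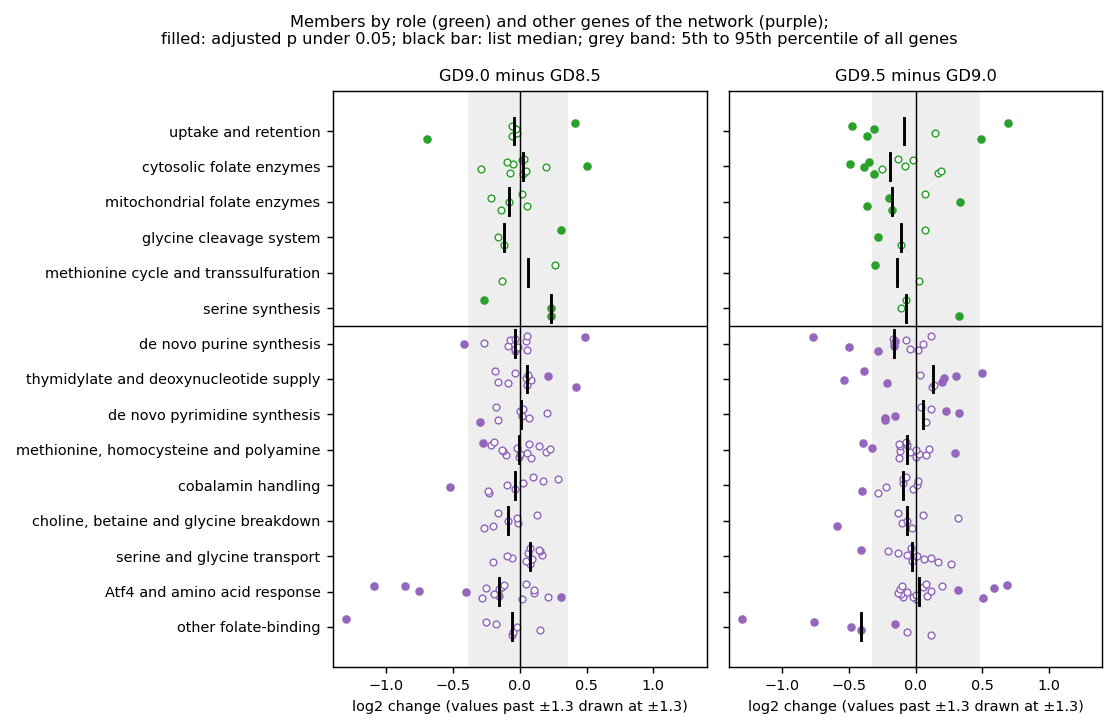
Log2 change of every measured gene in 6 member groups (green) and 9 lists of other pathway genes (purple) for GD9.0 minus GD8.5 (left) and GD9.5 minus GD9.0 (right). Filled points have an adjusted p under 0.05, black bars are list medians and the grey band spans the 5th to 95th percentile of all genes. On the right the cytosolic, mitochondrial and purine groups have medians of -0.19, -0.18 and -0.159.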

How the data were processed

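Biotin-labelled RNA from 12 neural tube samples was read on Affymetrix mouse expression arrays, per the labels. Affymetrix Expression Console 1.2.1 is named beside RMA and GCRMA in the submitters' processing notes. The deposited values were log2 signals for 10 arrays and linear intensities for GD8.5 replicates 1 and 2. No source used here says which of them made each column.

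Of 45101 probe sets 34945 named 1 gene, and each of 18193 genes was read from the brightest of these. Symbols were updated with RefSeq (GRCm38.p6), and 48 genes were not matched. The 29 members had 61 such probe sets, 17 members more than 1, and no member had sets called in opposite directions. Another 4 probe sets that name a member of Mthfs, Tyms or Phgdh with a second gene were not used. The fit took the 10 log2 arrays (limma 3.58.1, R 4.3.3), with a mean per stage and 7 residual degrees of freedom, with Benjamini-Hochberg adjustment over all genes and calls at 0.05. The script was tested on simulated data. The number of arrays limits the precision.

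The list of members and the pathway and marker lists were chosen with earlier results of these data known. All members were described; those called in an interval, or paired with a related enzyme, by array. From each pathway list, up to 2 rises and 2 falls per interval were named, taken from genes called with stages that did not overlap. Alternatives covered scaling, probe set choice, a filter on low values, the variance model, a block for replicate number, all 12 arrays after quantile normalization, and leaving out each array.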

Additional observations from a re-analysis of the deposited data

Results flagged for a closer look

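In 58 groups of 4 arrays (29 members at GD9.0 and GD9.5), 2 held an array standing apart from the other 3 by Dixon's test at the 95% level. Ggh on GD9.0 replicate 4 read 3.88, beside 3.93 to 3.94 on the others, a gap of 0.844 of the range. Psph on GD9.0 replicate 2 read 5.72, beside 5.86 to 5.88 on the others, a gap of 0.885 of the range. Chance alone gives such a flag in about 1 of 20 groups, more than were seen.

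Change in the second interval differed from change in the first for 7 members by the limma test of that difference. Folr1 (1.19) and Mthfd2l (0.412) moved up relative to the first interval. Shmt1 (-0.583), Gart (-0.438), Mthfd2 (-0.417), Psat1 (-0.341) and Mthfd1 (-0.335) moved down.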

How the results depend on the processing

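No called member reversed its direction in any alternative. In the first interval 5 rises and 2 falls were called. The mean of all probe sets gave 3 rises, all 12 arrays 1 rise and 4 falls, and the arrays of only the 2 stages compared 3 rises and 0 falls. Genes above background alone gave 4 falls and an intensity trend with robust spread 7. Leaving out each array gave 1 to 5 rises and 0 to 2 falls. In the second interval the 12 falls became 6 with all 12 arrays, where calls over all genes went from 2561 to 1259 higher and from 1868 to 1036 lower. From GD8.5 to GD9.5 leaving out each array gave 3 to 6 rises. For the difference of the intervals, 2 higher and 5 lower, the mean of probe sets gave 1 higher, all 12 arrays 1 higher and 3 lower, median centring 3 lower and repeated quantile normalization 3 lower. Leaving out each array gave 1 to 2 higher and 1 to 5 lower. For the pathway lists, all 12 arrays gave 2 rises and 14 falls in the first interval (4 and 9) and 5 rises in the second (11), the mean of probe sets 4 rises in the second, and the intensity trend 14 falls in the first. The causes of these shifts were not tested, beyond the smaller number of arrays or genes that an alternative holds.

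With the replicate number as a block 4 members rose and 0 fell in the first interval, 4 rose and 11 fell in the second, 4 and 12 over the whole course, and 1 was higher and 4 lower between intervals. Same-numbered arrays did not deviate together (1 of 8 correlations over 0.1, range -0.0619 to 0.101), so the numbers were not taken to pair the samples.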
